A study of Homo sapiens
Mus musculus with 24 samples.

Results

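The comparison asked how adding chemotherapy to moringa concentrate (MC) changed the transcripts of MDA-MB-231 tumors in obese mice, against tumors of mice that received MC alone. It rested on 11 of the 24 tumor libraries of the series, 6 from MC + Chemo mice and 5 from MC mice, taken by the group prefix of their titles. MDA-MB-231 is a human triple negative breast cancer line with mutant p53. The cells were injected in Matrigel and collagen under the skin at the base of the neck of B6/Rag1KO mice aged 14 weeks that were on a high-fat diet, and tumors over 200 mm3 were assigned to the arms. Both groups ate the high-fat diet with moringa concentrate, and the MC + Chemo mice also received doxorubicin and cyclophosphamide by weekly intraperitoneal injection. All hosts lacked Rag1 and so could form neither T nor B lymphocytes, and all tumor cells came from 1 line. Each library was 1 tumor, and a bulk tumor holds human cancer cells and murine host cells, which were counted in separate tables.

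Doxorubicin blocks topoisomerase II and breaks DNA, cyclophosphamide yields an agent that crosslinks it, and DNA damage activates p53, which switches on the cell cycle inhibitor CDKN1A. DNA that reaches the cytosol can switch on interferon-stimulated genes. Interferons in turn raise the genes that display peptides to cytotoxic T cells on MHC class I, with heavy chains such as HLA-B and the light chain B2M as the displaying molecule, PSMB8 and PSMB9 as proteasome subunits that cut peptides and TAP1 and TAP2 as their transporter.

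The human tables held 7796231 to 17621273 counts per library and the murine ones 3664056 to 9892470. The human share of the counts was 67.3% ± 4.24 (SD, n = 6) in MC + Chemo and 61.6% ± 7.83 (SD, n = 5) in MC, a difference of 5.78 percentage points (two-sided exact permutation test, p = 0.141). MC 41 had the lowest share, 47.8%, and without it the difference was 2.35 points (exact p = 0.352). The vimentin gene VIM counted 6272 to 21956 over the 11 libraries and the estrogen receptor gene ESR1 12.3 to 88.3. Against the usual description of this line as mesenchymal, the epithelial adhesion genes CDH1 (1656 to 4472) and EPCAM (2411 to 5399) were counted in all 11. Of 13 T and B lymphocyte markers only 3 were in the murine table. The title prefix of MC + Chemo 5 names the combination and its characteristics name MC alone, and MC 41 and MC 42 had an extra RNA cleanup that no MC + Chemo tumor had. In a bulk tumor, fewer cells of a type and less RNA per cell cannot be told apart.

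No human gene passed the 3 criteria of an adjusted p under 0.05, a fold change over 1.5 and a mean normalized count over 30 in edgeR's quasi-likelihood test, 0 of 15224 tested (0%). The lowest adjusted p was 0.131, and with 1 library left out it ran from 0.0777 without MC 59 to 0.525 without MC 6, with 0.518 without MC 48. At an unadjusted p under 0.05, 892 genes (5.86%) were higher in MC + Chemo and 773 (5.08%) lower, and the 2 groups did not overlap for 131 genes higher (0.86%) and 71 lower (0.466%). When each library was scaled on both genomes together, the split at that p was 1474 higher and 331 lower, with the median of all human genes moving from 0.00 to 0.09. DESeq2 called 27 human genes by the same criteria (0.187% of those with an adjusted p), 21 higher and 6 lower. Leaving out MC 42, MC + Chemo 5 or MC + Chemo 25 gave 77, 47 and 43 DESeq2 calls, and leaving out MC + Chemo 47 or MC + Chemo 52 gave 9 and 11. Below, higher and lower give the direction in the edgeR fit, fold changes are on the log2 scale with their SE, an adjusted p is that of edgeR over all genes tested unless DESeq2 is named, and normalized counts in MC are listed in the order of mice 6, 41, 42, 48 and 59.

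The MHC class I antigen presentation genes stood higher in the tumor cells of MC + Chemo mice. Of 16 genes tested, 15 were higher, 9 of them at an unadjusted p under 0.05 against 5.86% of all genes, and those 9 were also the ones whose groups did not overlap, against 0.86%. Their median log2 fold change was 0.53, beside 0.00 over all genes. HLA-B, a class I heavy chain, counted 7176, 12172, 8473, 11409 and 11163 in MC and 13618 to 20188 (median 16885) in MC + Chemo, and every MC + Chemo tumor lay above every MC tumor (0.73 ± 0.16, adjusted p = 0.401, DESeq2 adjusted p = 0.0139). Reads of the HLA heavy chain genes can be shared between these near-identical genes, so their separate values are uncertain.

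The partner and supply genes of the pathway showed the same order of groups. B2M, the light chain, counted 13904, 19267, 16533, 16601 and 16308 in MC and 20964 to 37889.9 (median 24202) in MC + Chemo (0.64 ± 0.15, adjusted p = 0.401). TAP2, a subunit of the peptide transporter, counted 922, 1300.3, 1293, 1029 and 1084 against 1437 to 2019 (median 1624), with a fold change of 0.56 ± 0.12 (adjusted p = 0.401). The immunoproteasome subunit PSMB8 counted 855, 707, 743, 744 and 739.8 against 924 to 1705 (median 1112), at 0.62 ± 0.14 (adjusted p = 0.401). None of these groups overlapped, nor did those of TAP1 (0.53), PSMB9 (0.53), HLA-C (0.57) or HLA-F (1.16). The mean level of the list was 10.25 ± 0.08 (SD, n = 5) in MC and 10.68 ± 0.17 (SD, n = 6) in MC + Chemo on the log2 scale, with the highest MC tumor at 10.3 and the lowest MC + Chemo tumor at 10.49. In fits that left out any 1 library 13 to 16 of the genes were higher and 9 or 10 had an unadjusted p under 0.05, and without both MC 41 and MC 42 these numbers were 13 and 8. With MC + Chemo 5 counted as MC, its other label, 14 were higher and 10 passed that p. Its mean level of the list, 10.68, lay above those of MC + Chemo 43, 47 and 50, so the levels of the groups would then overlap.

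**Figure D1:**
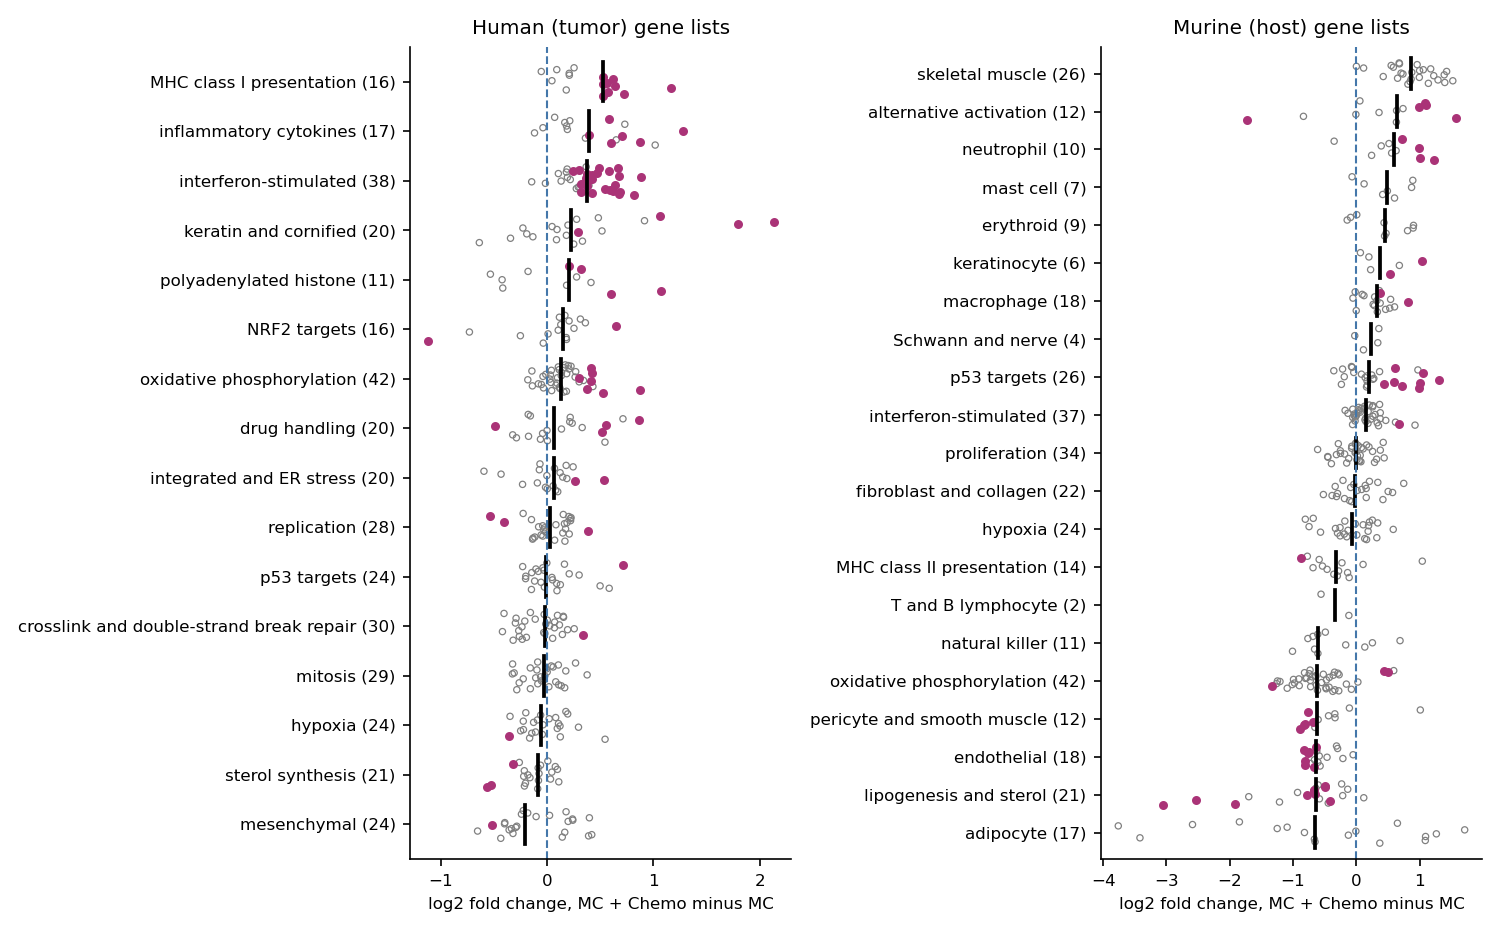
Log2 fold change of each tested list member (x axis, MC + Chemo minus MC) for human lists at left and murine lists at right, with the number of members tested in parentheses. Filled points have an unadjusted p under 0.05, open points do not, black bars are list medians and the dashed line is the median of all genes; MHC class I genes have the highest human median (0.53), and all 18 endothelial genes lie below 0.

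Interferon-stimulated genes of the tumor cells leaned the same way in smaller steps. Of 38 tested, 36 were higher and 25 had an unadjusted p under 0.05 (5.86% of all genes did in this direction), none of them lower, and the median was 0.37. ISG15, a ubiquitin-like modifier, counted 2433, 3954, 2019, 3061 and 3338 in MC and 3673 to 6149 (median 5258) in MC + Chemo (0.81 ± 0.17, adjusted p = 0.401, DESeq2 adjusted p = 0.0133). Its groups overlapped by 1 MC + Chemo tumor, which lay below MC 41. The groups did not overlap for 3 of the 38 genes, against 0.86% of all genes. These were PARP9, IFI6 and IFI27.

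IFI6, one of the most abundant of the list, counted 10838, 16804, 13684, 21497 and 22199.7 in MC and 23832 to 31629 (median 26649) in MC + Chemo (0.68 ± 0.18, adjusted p = 0.41). PARP9, an ADP-ribosyltransferase that acts with the ubiquitin ligase DTX3L, counted 591, 575, 606, 586 and 480.4 against 682 to 903 (median 779), at 0.47 ± 0.10 (adjusted p = 0.401). RSAD2, the antiviral enzyme viperin, counted 217, 425, 407, 581 and 399.9 against 558 to 1029.7 (median 754), and only MC 48 reached into the MC + Chemo range (0.88 ± 0.21, adjusted p = 0.401). The RNA sensor gene IFIH1 differed by 0.39. UBE2L6, which loads ISG15 onto proteins, differed by 0.59 ± 0.17 (adjusted p = 0.41). With 1 library left out the number of genes at an unadjusted p under 0.05 ran from 21 to 27, and it was 18 without both MC 41 and MC 42 and 17 with MC + Chemo 5 counted as MC.

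Tumor-made cytokines and related genes were also mostly higher, 15 of 17 tested, with a median of 0.39 and 6 at an unadjusted p under 0.05 against 5.86% of all genes. BIRC3, an inhibitor of apoptosis induced by NF-kB, counted 1322, 1145, 1526, 1509 and 1599.6 in MC and 1686 to 2530.2 (median 2081) in MC + Chemo, without overlap (0.58 ± 0.13, adjusted p = 0.401, DESeq2 adjusted p = 0.019). The neutrophil chemokine gene CXCL1 counted 1687, 1764, 3276, 3126 and 2697 against 2644 to 7883 (median 4265), and the groups overlapped (0.88 ± 0.26, adjusted p = 0.41). CSF3, the granulocyte growth factor, stayed low at 7.06 to 14.9 in MC and 8.80 to 55.0 in MC + Chemo (1.27 ± 0.41, adjusted p = 0.418). CXCL8 differed by 0.60 ± 0.25 (adjusted p = 0.435), and by 0.38 without MC + Chemo 52. The count of 6 was 3 without MC 41 or without MC + Chemo 52, and 4 without MC 6, MC 59 or MC + Chemo 50.

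The smallest p of any human gene belonged to ALOX5AP, which presents arachidonic acid to 5-lipoxygenase in leukotriene synthesis. It counted 43.3, 56.5, 38.2, 58.8 and 73.7 in MC and 111 to 161 (median 129) in MC + Chemo, well apart (1.30 ± 0.19, adjusted p = 0.131, DESeq2 adjusted p = 1.59e-06). KYNU, kynureninase of tryptophan breakdown, counted 199, 237, 254, 229 and 199 against 318 to 613 (median 410.0), also without overlap (0.95 ± 0.16, adjusted p = 0.302). C15orf48, a mitochondrial protein gene induced by inflammatory signals, counted 3931, 5878, 5995, 4989 and 4011 against 6017 to 14645 (median 9603), at 0.98 ± 0.20 (adjusted p = 0.401). BSG, the surface glycoprotein basigin, counted 505, 715, 657, 573 and 679.7 against 835 to 1311 (median 931), at 0.66 ± 0.14 (adjusted p = 0.401). All of these genes had a DESeq2 adjusted p under 0.05, the highest being 0.0133 for BSG.

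**Figure D2:**
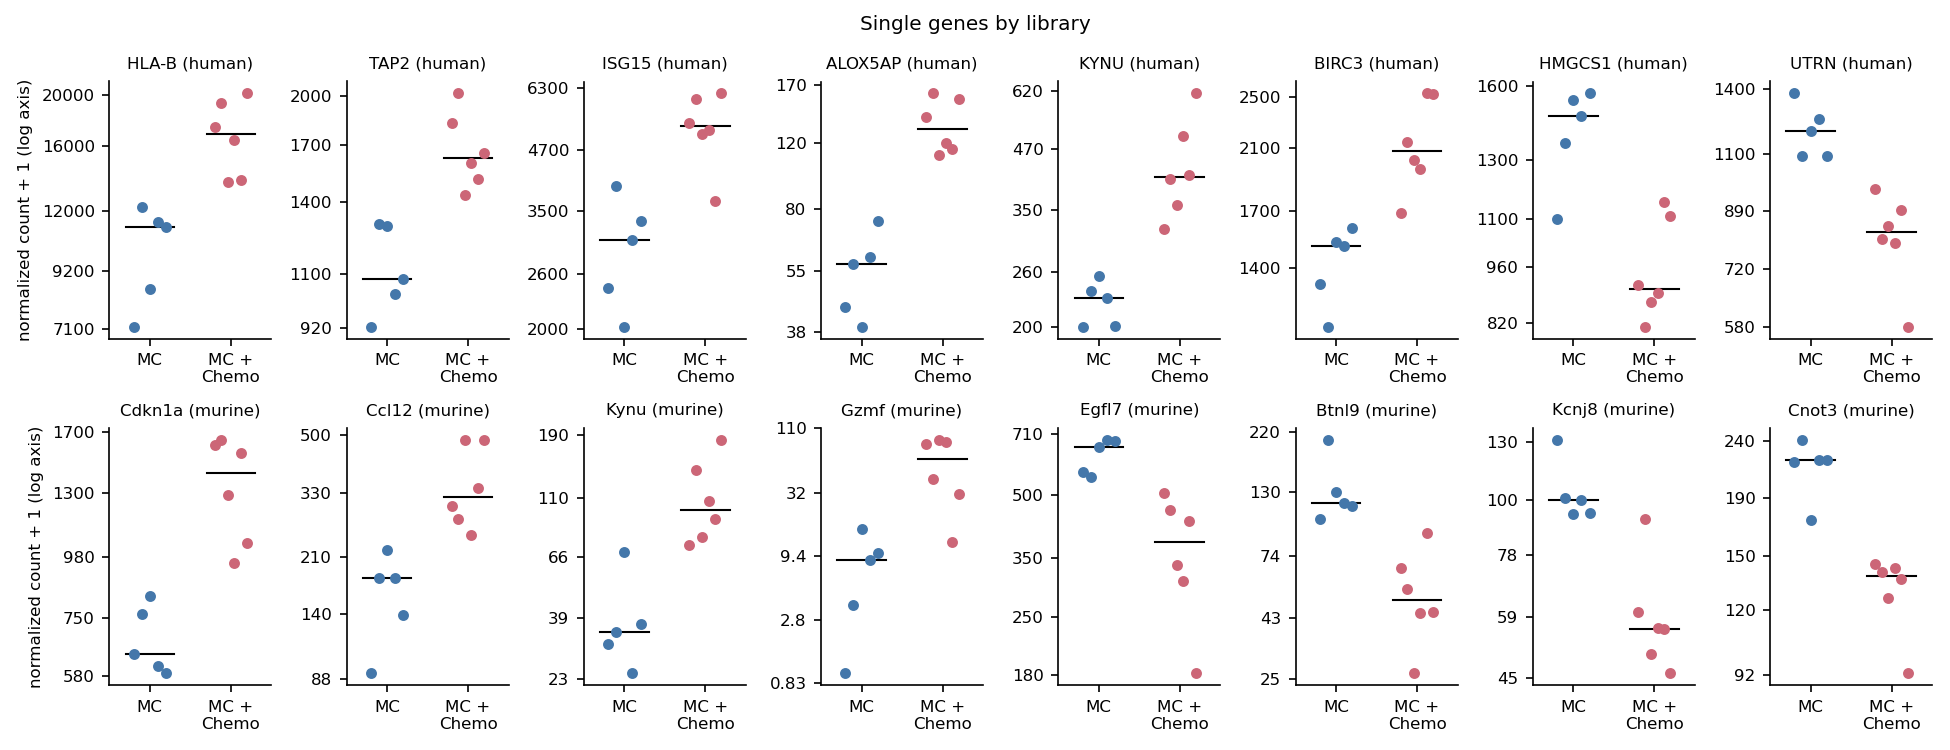
Normalized count plus 1 (y axis, log scale, different for each panel) of 8 human genes (top) and 8 murine genes (bottom) in the 5 MC and 6 MC + Chemo tumors, 1 point per library with the group median as a line. HLA-B, TAP2, ALOX5AP, KYNU and BIRC3 separate the groups upward, UTRN downward, and ISG15 and HMGCS1 overlap; of the murine genes only Gzmf overlaps.

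Epithelial defense and cornification genes of the tumor cells varied widely between mice. Of 20 keratin and cornified genes tested, 15 were higher and 4 had an unadjusted p under 0.05, against 5.86% of all genes. Their median was 0.22, from 0.15 without MC + Chemo 52 to 0.35 without MC 41. S100A8, a subunit of calprotectin, counted 10.8, 71.8, 41.3, 71.1 and 91.4 in MC and 92.7 to 674 (median 152) in MC + Chemo, a narrow separation (2.13 ± 0.56, adjusted p = 0.41). LCN2, the iron-scavenging lipocalin, counted 1055, 3639, 3589, 4305 and 4314 against 4155 to 10379.6 (median 6772) and overlapped (1.07 ± 0.30, adjusted p = 0.41). MC 6 was the lowest MC tumor for both genes. S100A7, psoriasin, differed by 1.79 ± 0.60 (adjusted p = 0.418), and by 1.12 without MC + Chemo 52.

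Genes of the DNA damage response itself showed little order in the tumor cells. Of 24 human p53 targets 11 were higher, 1 had an unadjusted p under 0.05 against 5.86% of all genes, and the median was -0.01. That 1 gene was TIGAR, which redirects glucose into the pentose phosphate pathway, at 89.3, 113, 112, 65.0 and 66.9 in MC and 122 to 214 (median 134) in MC + Chemo (0.72 ± 0.20, adjusted p = 0.41). CDKN1A differed by 0.09 (adjusted p = 0.705) and MDM2 by -0.15 (adjusted p = 0.535). Of 30 crosslink and double-strand break repair genes 13 were higher, and the median was -0.02. FANCF of the Fanconi anemia core complex was the 1 repair gene at an unadjusted p under 0.05 (0.33 ± 0.15, adjusted p = 0.444).

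The cell cycle lists were close to even. Replication genes had 14 of 28 higher (median 0.03), with RRM2, the small subunit of ribonucleotide reductase, higher at 0.38 ± 0.13 (adjusted p = 0.418) and the chromatin remodeler HELLS lower at -0.54 ± 0.17 (adjusted p = 0.418), the latter at -0.35 without MC 6. Mitosis genes had 12 of 29 higher (median -0.03) and none at an unadjusted p under 0.05. The proliferation marker MKI67 counted 2746, 2975, 3264, 2625 and 3412 in MC and 1564 to 3008 (median 2572) in MC + Chemo (-0.29 ± 0.15, adjusted p = 0.497, and -0.18 without MC + Chemo 52). Hypoxia genes had 10 of 24 higher (median -0.05, and 0.14 without both MC 41 and MC 42), with the stress gene NDRG1 at -0.36 ± 0.15 (adjusted p = 0.435). With any 1 library left out, the medians of the p53, repair, replication, mitosis and hypoxia lists stayed between -0.12 and 0.08, on either side of 0. On the scaling over both genomes the medians of the p53, repair, mitosis and hypoxia lists all turned positive, between 0.05 and 0.09, at the shift of all genes or less.

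Several smaller human lists leaned upward. Of 42 oxidative phosphorylation genes 34 were higher (median 0.13), 7 at an unadjusted p under 0.05 against 5.86% of all genes. Without MC + Chemo 52 the median was 0.01, with 21 higher and 4 at that p, and without MC 6 the number at that p was 3. The complex II subunit SDHC differed by 0.41 ± 0.13 (adjusted p = 0.41) and the complex I subunit NDUFB3 by 0.87 ± 0.29 (adjusted p = 0.418). Among 11 polyadenylated histone genes tested, 7 were higher (median 0.21) and 4 had an unadjusted p under 0.05, against 5.86% of all genes. HIST1H2BD counted 349, 274, 296, 235 and 198 in MC and 352 to 472 (median 411) in MC + Chemo, just apart (0.60 ± 0.14, adjusted p = 0.401), and reads may be shared among histone copies. The count of 4 was 2 without MC 42, MC 48, MC + Chemo 47 or MC + Chemo 52. NRF2 targets had 12 of 16 higher (median 0.15, and 0.05 without MC + Chemo 52). Their heme oxygenase gene HMOX1 was at -1.12 ± 0.52 (adjusted p = 0.456), and at -0.06 without MC 41, the 1 tumor at 426. AKR1B1, aldose reductase, was at 0.65 ± 0.18 (adjusted p = 0.41).

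Integrated and ER stress genes had 12 of 20 higher (median 0.06, from 0.01 without MC 6 to 0.11 without MC 41), with the chaperone gene DNAJB9 at 0.54 ± 0.19 (adjusted p = 0.425). Drug handling genes had 11 of 20 higher (median 0.07, from 0.01 without MC 42 to 0.15 without MC + Chemo 5). Of these, 3 had an unadjusted p under 0.05, against 5.86% of all genes, and 1 of the lower genes did, against 5.08%. The count of 3 was 5 without MC 41. CYP2J2, an epoxygenase, counted 24.4, 60.0, 29.1, 42.3 and 28.7 in MC and 50.9 to 98.4 (median 59.1) in MC + Chemo, with MC 41 inside the MC + Chemo range (0.86 ± 0.27, adjusted p = 0.418). The aldehyde dehydrogenase gene ALDH2 differed by 0.52 ± 0.17 (adjusted p = 0.418). Mesenchymal genes had 10 of 24 higher (median -0.20, -0.11 without MC 41 and -0.09 without MC + Chemo 52), with the basement membrane collagen COL4A1 at -0.52 ± 0.23 (adjusted p = 0.442). That was the 1 mesenchymal gene lower at an unadjusted p under 0.05, against 5.08% of all genes. Without MC + Chemo 25 there were 5.

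Among human genes with a symbol and a mean normalized count over 30, the smallest p of those lower in MC + Chemo belonged to a gene of cholesterol synthesis. HMGCS1, which makes the precursor HMG-CoA, counted 1100.1, 1360.3, 1536, 1467 and 1566 in MC and 811 to 1152 (median 902) in MC + Chemo, with only MC 6 inside the MC + Chemo range (-0.56 ± 0.12, adjusted p = 0.401, DESeq2 adjusted p = 0.0285). Of 21 sterol genes 15 were lower and 3 had an unadjusted p under 0.05, against 5.08% of all genes. Their median was -0.09, and 0.00 on the scaling over both genomes. Without MC 6 it was -0.19, and 5 genes were lower at that p. Beside HMGCS1, the other 2 of the 3 were INSIG1, a regulator of sterol synthesis, at -0.52 ± 0.18 (adjusted p = 0.419), and the sterol transcription factor SREBF2 at -0.32 ± 0.14 (adjusted p = 0.435).

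The further genes lower in MC + Chemo with the smallest p had mixed roles. UTRN, the dystrophin relative utrophin, counted 1376, 1091, 1197, 1249 and 1091 in MC and 580.2 to 966 (median 822) in MC + Chemo, without overlap (-0.57 ± 0.12, adjusted p = 0.401). PIK3R1, the regulatory subunit of PI3-kinase, counted 441, 515, 402, 422 and 371 against 215 to 361 (median 281), also without overlap (-0.58 ± 0.14, adjusted p = 0.401). RAB3B, a vesicle GTPase, counted 35.2, 147, 89.8, 47.4 and 35.5 against 10.1 to 29.4 (median 22.8), at -1.76 ± 0.40 (adjusted p = 0.401). ARGLU1 (-0.52 ± 0.11), TRIB2 (-0.51 ± 0.12) and KCTD12 (-0.59 ± 0.14) were lower without overlap as well. The identifier ENSG00000130600, which the files give no symbol, counted 969, 417, 185, 444 and 199 in MC and 107 to 193 (median 128) in MC + Chemo, with a DESeq2 adjusted p of 0.00514, and was chosen after its values were seen. Only MC 42 lay inside its MC + Chemo range.

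In the host, 0 of 13967 murine genes tested passed the 3 criteria (0%), with a lowest adjusted p of 0.557, which was also that of each murine gene named below with an unadjusted p under 0.05. At an unadjusted p under 0.05, 689 murine genes (4.93%) were higher in MC + Chemo and 550 (3.94%) lower, and the groups did not overlap for 55 higher (0.394%) and 68 lower (0.487%). On the scaling over both genomes the split was 233 higher and 1085 lower, with the median of all murine genes at -0.19 against -0.01. DESeq2 called 10 genes (0.0602%), 5 in each direction. The number was 119 without MC 42 and 25 without MC + Chemo 25. It was 1 without MC 41, 2 without MC + Chemo 43 or MC + Chemo 47, 3 without MC 6 or MC 48, and 5 without MC 59 or MC + Chemo 52.

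The p53 targets of the host were higher in MC + Chemo. Of 26 tested, 19 were higher and 8 had an unadjusted p under 0.05, against 4.93% of all genes, none lower, and the median was 0.21 (0.03 on the scaling over both genomes and 0.13 without MC + Chemo 52). Cdkn1a, the cell cycle inhibitor p21, had the smallest p of any murine gene. It counted 638, 760.0, 826, 607 and 587 in MC and 955 to 1639.6 (median 1418) in MC + Chemo, without overlap (0.99 ± 0.18, adjusted p = 0.557, DESeq2 adjusted p = 0.00496). Eda2r, a TNF receptor family member, counted 6.35, 19.95, 21.4, 15.5 and 9.06 against 21.8 to 40.6 (median 29.1), just apart (1.01 ± 0.31). Trp53inp1, a p53 cofactor, counted 87.3, 105, 135, 132 and 126 against 135 to 230.0 (median 169.9), again just apart (0.59 ± 0.18). The groups did not overlap for these 3 genes of the list, against 0.394% of all genes.

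The other host p53 targets at an unadjusted p under 0.05 were Gdf15 (1.31), Psrc1 (1.06), Ccng1 (0.72), Rps27l (0.61) and Zmat3 (0.44). Bax and Mdm2 were at 0.17 and 0.16, with an adjusted p = 0.868 for Bax and an adjusted p = 0.812 for Mdm2. Bax was at -0.02 on the scaling over both genomes and -0.08 without MC + Chemo 52, and Mdm2 at -0.02 without both MC 41 and MC 42. With 1 library left out, the number at an unadjusted p under 0.05 ran from 7 to 9, and it was 5 without both MC 41 and MC 42 and 5 with MC + Chemo 5 counted as MC. The mean level of the list was 6.18 ± 0.12 (SD, n = 5) in MC and 6.49 ± 0.17 (SD, n = 6) in MC + Chemo, and the groups overlapped.

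Endothelial genes of the host were lower in MC + Chemo. All 18 tested were lower, 7 of them at an unadjusted p under 0.05 against 3.94% of all genes, and the median was -0.63. Their summed normalized count was 7788 to 8560 in MC and 2074 to 7468 in MC + Chemo, and the mean level was 8.14 ± 0.03 (SD, n = 5) against 7.48 ± 0.55 (SD, n = 6). Every MC + Chemo tumor, by title, thus lay below the narrow MC range. MC + Chemo 5, whose other label is MC, was at 7.88, below MC + Chemo 25 at 7.97. Counted as MC, it would make the groups overlap. Egfl7, a factor secreted by endothelial cells, counted 568, 554, 655, 685 and 679.8 in MC and 180.5 to 505 (median 383) in MC + Chemo (-0.76 ± 0.23). Pecam1, the gene of the endothelial marker CD31, counted 768, 894, 906, 987 and 1050.1 against 254 to 758 (median 622), at -0.67 ± 0.24. These were the 2 genes of the list whose groups did not overlap, against 0.487% of all genes.

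The groups overlapped for the other endothelial genes. Ptprb, the phosphatase of vascular endothelium, was at -0.83 ± 0.27, with a bare overlap, and Robo4 at -0.75 ± 0.27, while Kdr and Tie1 were at -0.81 each. MC + Chemo 52 was the lowest tumor of the list. Without it 17 of 18 genes were lower, 8 had an unadjusted p under 0.05 and the median was -0.54. The number at that p was 4 without MC 42 or MC + Chemo 43, and 13 without MC + Chemo 25. It was 5 without both MC 41 and MC 42, and 10 with MC + Chemo 5 left out or counted as MC.

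Genes outside the list that were lower without overlap included Rasip1, which is needed for vessel lumen formation, at 413, 386, 434, 516 and 555 in MC and 184 to 362 (median 247) in MC + Chemo (-0.80 ± 0.20). Arhgef15, an exchange factor of endothelium, counted 100.01, 125, 81.0, 73.2 and 105 against 26.4 to 64.1 (median 47), at -1.04 ± 0.22 (DESeq2 adjusted p = 0.038). Btnl9, a butyrophilin-like gene, counted 102, 204, 129, 117 and 114 against 25.4 to 89.0 (median 49.0), at -1.28 ± 0.28 (DESeq2 adjusted p = 0.038). Pitpnm2 (-1.12 ± 0.24) and the Rac exchange factor gene Prex2 (-1.46 ± 0.36) were lower as well. Cnot3, a subunit of the CCR4-NOT deadenylase, had the smallest p of the genes lower in MC + Chemo, at 219, 240.3, 173, 221 and 221 against 91.6 to 144 (median 137; -0.72 ± 0.15).

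Pericyte and smooth muscle genes were lower as well. Of 12 tested, 11 were lower and 5 had an unadjusted p under 0.05, against 3.94% of all genes (median -0.63). Kcnj8, the pore subunit of the pericyte potassium channel, counted 130.2, 99.8, 92.9, 99.0 and 93.2 in MC and 44.9 to 90.8 (median 55.1) in MC + Chemo, without overlap (-0.81 ± 0.20). Its partner Abcc9 was at -0.68 ± 0.23, Cspg4 at -0.83 ± 0.32 and Rgs5 at -0.89 ± 0.37. MC + Chemo 50 reached 3046 for Rgs5, inside the MC range of 2375 to 3074. The count of 5 was 3 with MC 42, MC 48 or any of MC + Chemo 5, 43 and 47 left out, without both MC 41 and MC 42, and with MC + Chemo 5 counted as MC. Fibroblast and collagen genes were even, with 11 of 22 higher and a median of -0.01, from -0.16 without MC 41 to 0.08 without MC + Chemo 52. The part of vessel cell content in the lower endothelial genes was not tested.

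**Figure D3:**
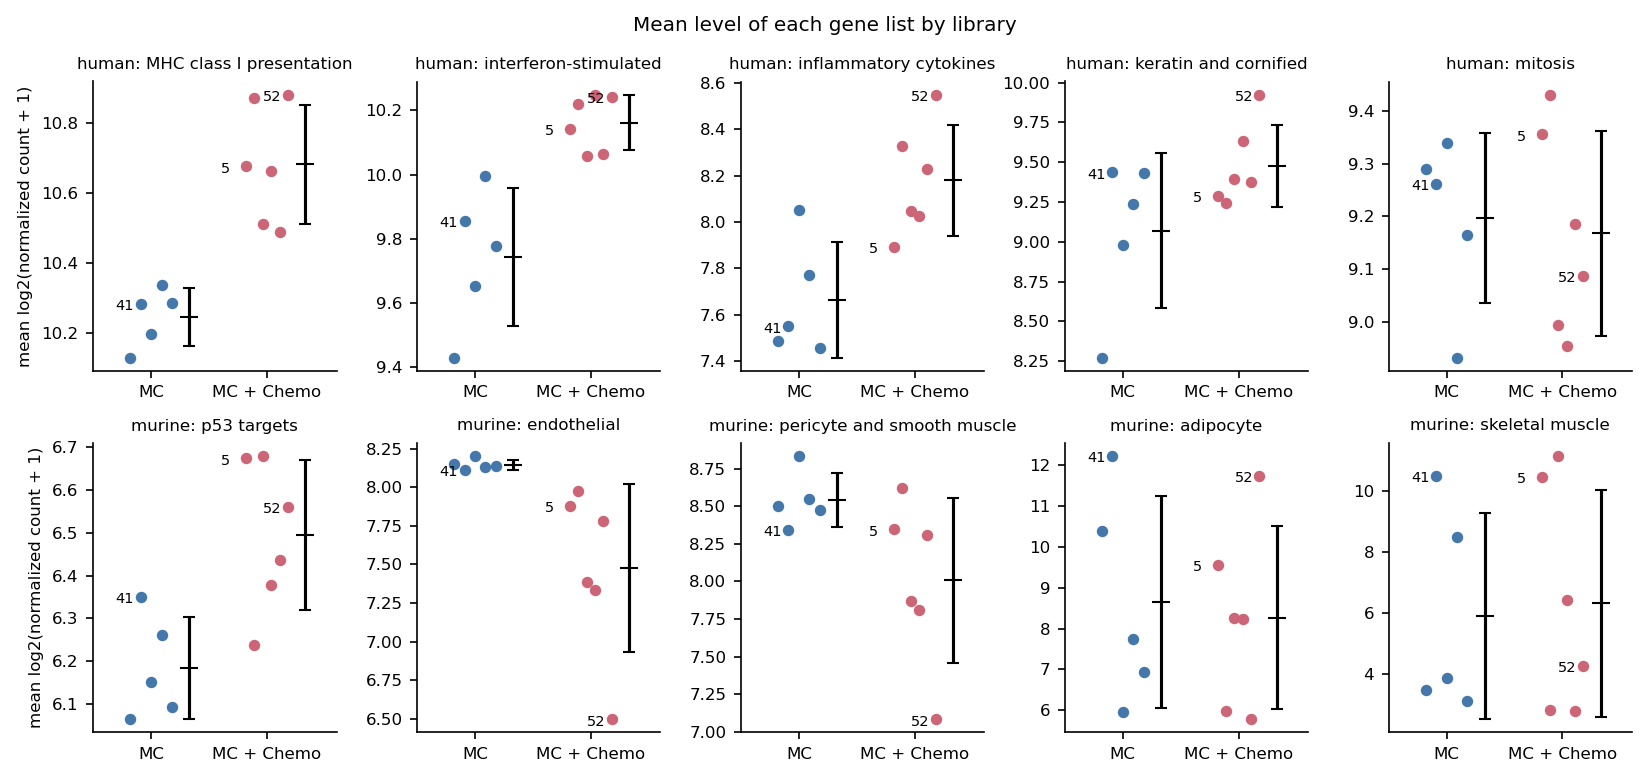
Mean log2(normalized count + 1) of 10 gene lists (y axis, different for each panel) in the 5 MC and 6 MC + Chemo tumors, 1 point per library, with the mean and SD beside each group and mice 41, 52 and 5 marked by number. Grouped by title, the MHC class I and interferon-stimulated lists of the tumor cells and the endothelial list of the host separate the groups. With MC + Chemo 5 counted as MC, the groups overlap in each of them. The adipocyte and skeletal muscle lists spread over several log2 units within both groups.

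Myeloid genes of the host leaned upward with wide spread. Of 18 macrophage genes 15 were higher (median 0.33, 0.20 without MC 6, 0.18 with MC + Chemo 5 counted as MC and 0.16 on the scaling over both genomes). Of these, 2 had an unadjusted p under 0.05, against 4.93% of all genes. The count of 2 was 6 without MC 59, and 0 without MC 41 or MC + Chemo 52. Lyz2, lysozyme, counted 1989, 6080.1, 7314, 8184 and 10289.6 in MC and 10023 to 14279.5 (median 11798) in MC + Chemo, with MC 59 inside the MC + Chemo range (0.82 ± 0.32). Ccl12, a monocyte chemokine, counted 90.5, 179, 219, 179 and 137 against 243 to 481 (median 321), without overlap (1.14 ± 0.25, DESeq2 adjusted p = 0.0372). Cfp, the complement regulator properdin, counted 187, 295, 293, 350.3 and 383 against 432 to 652 (median 502), also without overlap (0.80 ± 0.19).

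Alternative activation genes did not move as one. Of 12, 9 were higher and 4 had an unadjusted p under 0.05 (median 0.64), and 1 was lower at that p. Of all murine genes 4.93% were higher and 3.94% lower at that p. Pf4, platelet factor 4, counted 329, 952, 669, 882 and 819.6 in MC and 913 to 2333 (median 1368) in MC + Chemo, with MC 41 inside that range (1.08 ± 0.31). Retnla, a secreted resistin-like protein, was the lower gene, at 198, 723, 841, 1167 and 273 against 32.8 to 387 (median 168; -1.74 ± 0.53). F13a1 and Chil3 were at 1.10 ± 0.44 and 1.57 ± 0.53. The median was 0.39 without MC + Chemo 52 and 0.42 without MC + Chemo 43. The count of 4 was 2 without MC 6, MC 42, MC 59, MC + Chemo 43 or MC + Chemo 52, and 1 without both MC 41 and MC 42.

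Neutrophil genes were higher in 9 of 10 tested, 4 at an unadjusted p under 0.05 against 4.93% of all genes (median 0.59). S100a8 counted 668, 517, 657, 1009 and 830.0 in MC. In MC + Chemo it counted 293 to 3455 (median 1573), and the low value was MC + Chemo 52, the other 5 tumors lying above every MC tumor (1.23 ± 0.45). Its partner S100a9 was at 1.01 ± 0.43 with the same low tumor, and the collagenase gene Mmp8 at 0.99 ± 0.43. No neutrophil gene had an unadjusted p under 0.05 without MC + Chemo 25 or without both MC 41 and MC 42. The count was 1 without MC 6, 2 without MC 41, MC 42, MC + Chemo 43 or MC + Chemo 50, and 2 with MC + Chemo 5 counted as MC.

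Among lymphoid and presenting cells the values were lower or mixed. Natural killer genes were lower in 8 of 11, none at an unadjusted p under 0.05 (median -0.61, -0.37 without MC 48 and -0.40 without MC 59). Their receptor gene Ncr1 counted 25.4, 21.8, 28.6, 40.5 and 38.8 in MC and 7.04 to 28.2 (median 22.2) in MC + Chemo (-0.61 ± 0.33, adjusted p = 0.601). Gzmf, a granzyme, went the other way at 0, 2.72, 14.9, 7.75 and 9.06 against 11.3 to 87.1 (median 60.3), low counts with 1 MC + Chemo tumor inside the MC range (2.88 ± 0.66, DESeq2 adjusted p = 0.00959). MHC class II genes were lower in 12 of 14 (median -0.33, from -0.56 without MC 6 to -0.18 without MC 48). Only Zbtb46, a transcription factor of dendritic cells that endothelium also expresses, had an unadjusted p under 0.05, against 3.94% of all genes. It counted 121, 119.7, 116, 157 and 133 in MC against 47.5 to 84.2 in MC + Chemo (median 76.4, -0.87 ± 0.19). Mast cell genes were higher in 6 of 7 (median 0.49, from 0.11 without MC + Chemo 43 to 0.87 without MC 48), and both T and B lymphocyte markers tested were lower.

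Interferon-stimulated genes of the host were higher in 28 of 37 tested, with 1 at an unadjusted p under 0.05 against 4.93% of all genes, and the median of 0.15 was 0.00 on the scaling over both genomes, -0.01 without MC + Chemo 5 and -0.13 with it counted as MC. That gene was Ifit1, at 600.0, 455, 1214, 745 and 645 in MC and 809 to 1569.6 (median 1162) in MC + Chemo (0.67 ± 0.27). Host proliferation genes were split evenly, 17 of 34 higher with a median of 0.00 (between -0.09 and 0.09 with any 1 library left out), and -0.15 on the scaling over both genomes. Host hypoxia genes had 11 of 24 higher (median -0.07, 0.11 without MC 41 and 0.04 with MC + Chemo 5 counted as MC).

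The tumors differed widely in how much muscle and fat RNA they carried. Skeletal muscle genes were higher in 26 of 26 tested, none at an unadjusted p under 0.05, with a median of 0.87. That median was -0.03 without MC + Chemo 43, 2.66 without MC 41 and -0.10 with MC + Chemo 5 counted as MC. Tnnc2, fast troponin C, counted 15.9, 3812, 30.98, 1461 and 14.2 in MC and 8.90 to 10381 (median 219) in MC + Chemo. Ucp1, the uncoupling protein of brown fat, counted 5396, 27205, 20.3, 50.8 and 14.2 in MC and 11.6 to 2069 (median 33.4) in MC + Chemo. Adipocyte genes as a list were higher in 6 of 17 (median -0.65, from -1.83 without MC + Chemo 52 to 1.08 without MC 41), none at an unadjusted p under 0.05. The summed adipocyte count ran from 3713 to 177702 in MC and from 2223 to 168697 in MC + Chemo, highest in MC 41 and MC + Chemo 52.

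Host lipid genes were lower in MC + Chemo, with high values in some of the tumors rich in fat RNA. Of 21 lipogenesis and sterol genes 20 were lower and 10 had an unadjusted p under 0.05, against 3.94% of all genes (median -0.64). Elovl6, a fatty acid elongase, counted 525, 1912, 71.5, 55.9 and 59.6 in MC and 49.0 to 157 (median 77.0) in MC + Chemo, so that MC 6 and MC 41 alone lay above the MC + Chemo range (-2.53 ± 0.83). It was at -1.06 without MC 41. Acaca, acetyl-CoA carboxylase, was at -1.91 ± 0.70, and at -0.75 without MC 41. The count of 10 was 5 without MC 41 or MC 42, 6 without MC 59 or MC + Chemo 43, and 1 without both MC 41 and MC 42, where the median was -0.38.

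The sterol genes of the list differed less. Fdps, farnesyl diphosphate synthase, counted 42.9, 78.9, 53.6, 43.04 and 38.8 in MC and 25.7 to 48.4 (median 29.5) in MC + Chemo, and only MC + Chemo 52 reached into the MC range (-0.66 ± 0.23). Hmgcs1, the host form of the human gene above, counted 878, 1901, 735, 516 and 668 against 339.9 to 755 (median 524), at -0.77 ± 0.29 and -0.41 without MC 41. Host oxidative phosphorylation genes were lower in 38 of 42 (median -0.62). The median was 0.25 without MC 41 and 0.10 without both MC 41 and MC 42. At an unadjusted p under 0.05, 2 of them were higher and 1 lower, against 4.93% and 3.94% of all genes. Their complex I subunit Ndufs1 counted 679, 2142, 204, 246 and 194 against 153 to 435 (median 237). The part of fat content in these values was not tested.

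Other host lists were small or uneven. Erythroid genes were higher in 7 of 9 (median 0.45, 0.11 without MC + Chemo 43 and 0.26 without MC 59), with the globin gene Hbb-bs at 3181, 6142, 4747, 1737 and 1770.0 in MC and 3449 to 11895 (median 4479.6) in MC + Chemo (0.81 ± 0.41, adjusted p = 0.585, and 0.50 without MC + Chemo 43). Reads of globin copies can be shared. Keratinocyte genes were higher in 6 of 6, and 2 had an unadjusted p under 0.05, against 4.93% of all genes. These were Krt10 (1.03 ± 0.37) and Krt5 (0.54 ± 0.22, and 0.32 without MC + Chemo 52). Schwann and nerve genes were higher in 3 of 4 (median 0.23, and -0.01 without MC + Chemo 43). Krt7, a keratin of simple epithelia, counted 159, 119.7, 169, 135 and 119 in MC and 181 to 321 (median 235) in MC + Chemo, without overlap (0.78 ± 0.18). Nr3c2, the mineralocorticoid receptor, was at 1.19 ± 0.29 and Tgfa, an EGF receptor ligand, at 0.75 ± 0.19.

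The study singles out a number of genes in these tumors, a choice made on these samples and so no independent evidence of direction. Of 27 such human genes tested 16 were higher, 7 at an unadjusted p under 0.05, and 5 were lower at that p. Of all human genes 5.86% were higher and 5.08% lower at that p. The list median was 0.22, and 0.07 with MC + Chemo 5 counted as MC. With 1 library left out it ran from 0.06 without MC 6 to 0.36 without MC + Chemo 25. The monoamine oxidase gene MAOA counted 222, 374, 405, 384 and 364 in MC and 431 to 577 (median 518) in MC + Chemo, without overlap (0.54 ± 0.14, adjusted p = 0.41). Of 22 murine ones 19 were higher, 5 at an unadjusted p under 0.05, and 2 were lower at it. Of all murine genes 4.93% were higher and 3.94% lower at that p. The murine list median was 0.81, and 0.28 with MC + Chemo 5 counted as MC. The murine genes included the exocyst subunit Exoc4 at 211, 336, 304, 342 and 308 in MC and 365 to 463 (median 430.3) in MC + Chemo, without overlap (0.51 ± 0.14). Tuba4a, an alpha-tubulin, was at 0.62 ± 0.19 and the transcription factor Foxo6 at 0.78 ± 0.22.

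A pair of genes stood out in both tables with like values. Murine Kynu counted 30.2, 33.6, 67.9, 23.2 and 36.3 in MC and 72.5 to 181 (median 98.6) in MC + Chemo, without overlap (1.52 ± 0.32, DESeq2 adjusted p = 0.0173), in the direction of human KYNU. NTRK3, a neurotrophin receptor gene, counted 78.5, 224, 15.2, 19.6 and 8.19 in MC and 3.06 to 12.2 (median 5.78) in MC + Chemo (-3.21 ± 0.76, adjusted p = 0.401, and -2.01 without MC 41). Murine Ntrk3, chosen after its values were seen, ran from 11.7 to 318 in MC and from 7.92 to 29.1 in MC + Chemo (-2.87 ± 0.75). MC 41 and then MC 6 were the highest of all 11 tumors for NTRK3 and for Ntrk3, and MC + Chemo 52 was the highest for KYNU and for Kynu. How reads that match both genomes were assigned is not given in the sources used here, and the part of shared reads was not tested.

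**Figure D4:**
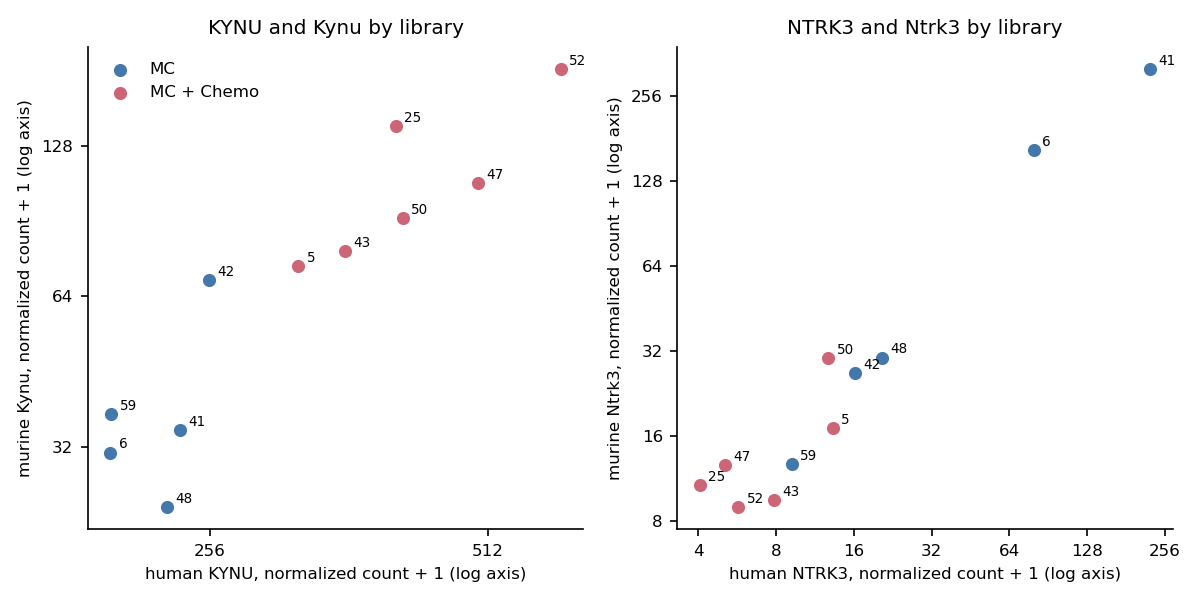
Human against murine normalized count plus 1 (both axes on a log scale) of KYNU and Kynu at left and NTRK3 and Ntrk3 at right, 1 point per tumor labeled by mouse number, with MC in blue and MC + Chemo in red. All 6 MC + Chemo tumors lie above the MC tumors in both KYNU and Kynu, and mice 6 and 41 of MC lie apart from the rest in NTRK3 and Ntrk3.

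The effect of chemotherapy on top of MC was set beside its effect without MC, from Chemo against CTRL tumors (5 and 4 libraries), which share no library with the comparison above. In that pair, which was fitted with edgeR and not with DESeq2, 0 genes passed the 3 criteria in either genome. At an unadjusted p under 0.05, 604 human genes were higher (3.92%) and 1099 lower (7.13%), and 293 murine genes were higher (2.09%) and 352 lower (2.52%). The difference of the 2 effects, tested in a fit to 20 libraries, passed for 0 genes. At an unadjusted p under 0.05, 954 human genes (5.81%) had a more positive effect under MC and 646 (3.93%) a more negative one, and in the host these were 536 (3.57%) and 495 (3.3%). DESeq2 called 1 human gene and 0 murine genes for the difference. With 1 library left out, the human genes at an unadjusted p under 0.05 ran from 977 without CTRL 17 to 3061 without CTRL 31, against 1600. The murine ones ran from 646 without CTRL 17 to 1581 without Chemo 67, against 1031. The differences given below for lists were not examined with libraries left out.

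The direction was shared by 55.8% of 14961 human genes. It was shared by 64.3% of the 882 that were higher under MC at an unadjusted p under 0.05 and by 62.3% of the 756 that were lower. In the host, 45.2% of 13606 genes kept their direction, with 34.7% of 672 higher and 39.5% of 542 lower ones. These are counts over genes, which are not independent replicates.

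MHC class I genes of the tumor had medians of 0.53 with MC and 0.51 without it. The difference of the 2 effects was positive for 5 of the 16 (median -0.08), and none had an unadjusted p under 0.05 for it. The interferon-stimulated genes had a median of 0.37 under MC and 1.12 without it. All 38 had a smaller effect under MC (median difference -0.75), 4 of them at an unadjusted p under 0.05 against 3.93% of all genes. ISG15 was at 0.81 under MC and 1.41 without it, with a difference of -0.59 (adjusted p = 0.611). Keratin and cornified genes had medians of 0.22 and 1.13, and all 20 had a smaller effect under MC, 3 at that p.

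Mitosis genes were lower with chemotherapy alone, 29 of 29 with a median of -0.40. Of them 6 had an unadjusted p under 0.05 in that pair, against 7.13% of all genes. Under MC their median was close to 0 (-0.03). The difference was positive for 28 of 29, 3 at an unadjusted p under 0.05 against 5.81% of all genes. In the host, p53 targets had medians of 0.21 under MC and 0.53 without it, and Cdkn1a was at 0.99 and 0.74 (difference 0.20, adjusted p = 0.85). Endothelial genes had medians of -0.63 under MC and 0.17 without it, where none of the 18 had an unadjusted p under 0.05. All 18 differences were negative (median -0.84), 1 at an unadjusted p under 0.05 against 3.3%, with Egfl7 at -0.76 and 0.53 (difference -1.32, adjusted p = 0.695). Erythroid genes had medians of 0.45 and 2.02, and 5 of 9 differences were negative at that p. Host interferon-stimulated genes had medians of 0.15 and -0.27, with 34 of 37 differences positive, 4 at that p against 3.57%.

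**Figure D5:**
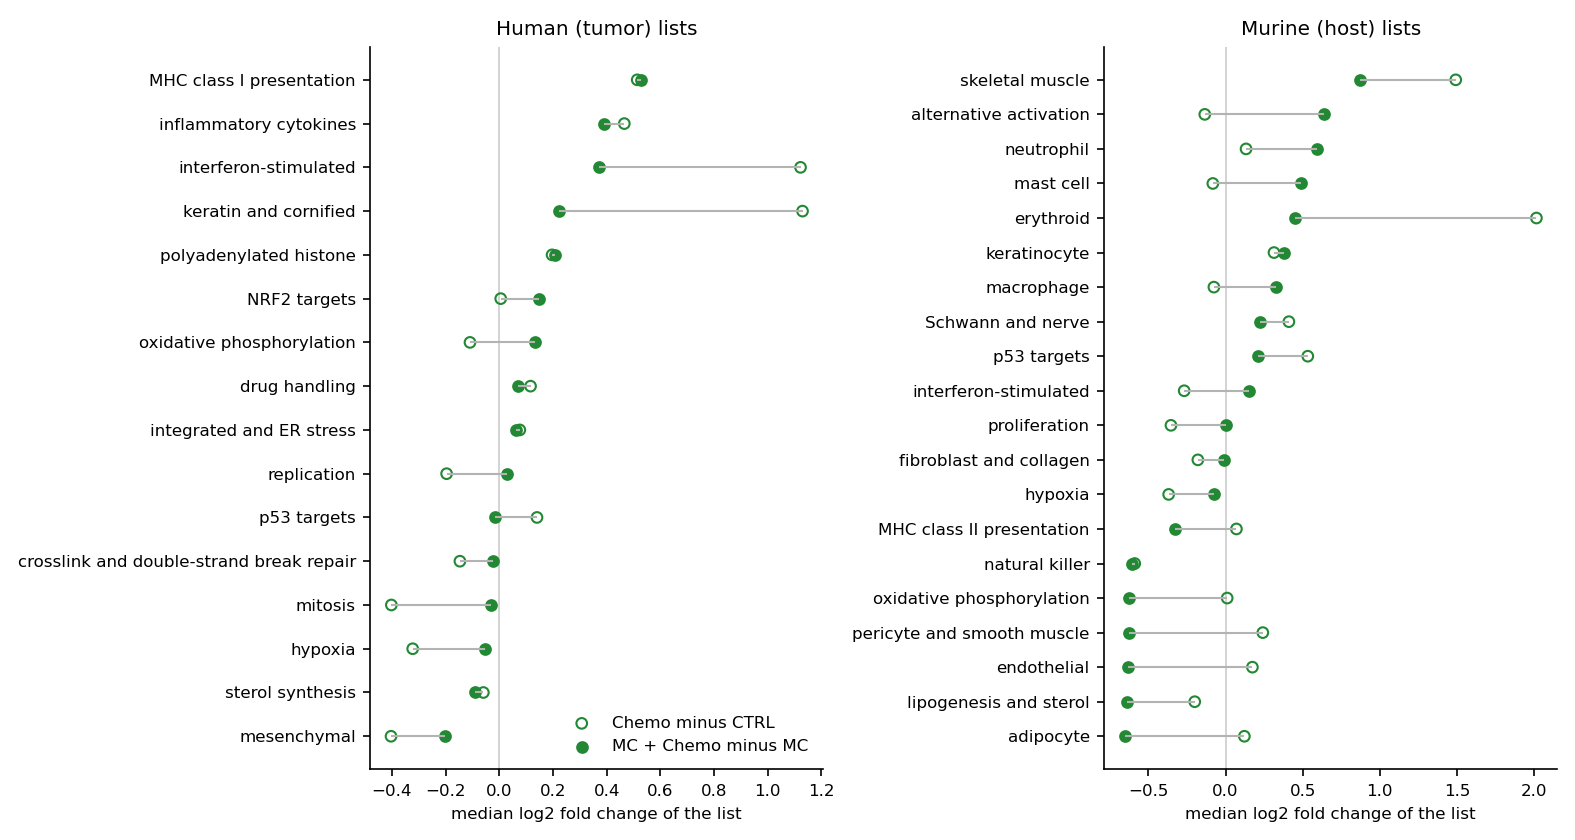
Median log2 fold change (x axis) of each gene list for chemotherapy without MC (open, Chemo minus CTRL) and with MC (filled, MC + Chemo minus MC), human lists at left and murine lists at right. The MHC class I points nearly coincide (0.51 and 0.53), the interferon-stimulated and keratin points of the tumor lie further right without MC, and the endothelial points lie on opposite sides of 0. No endothelial gene had an unadjusted p under 0.05 without MC.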

How the data were processed

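QuantSeq 3' libraries of the tumors were sequenced by the authors and processed on the BlueBee platform into human and murine counts. GRCm38 is named in the submitters' processing notes, with DESeq2 1.22.2, and the human build and the aligner are not given in the sources used here. The deposited raw counts per gene held 18880 human and 16667 murine genes, none summing to under 72 over 24 libraries. The deposited normalized signal tables equal these counts divided by 1 factor per library.

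MC + Chemo (n = 6) and MC (n = 5) were compared in each genome with edgeR 4.0.16 (quasi-likelihood F test, TMM, filterByExpr, two-sided, Benjamini-Hochberg adjustment; limma 3.58.1, R 4.3.3) on the raw counts, checked on simulated data. DESeq2 1.42.0, its size factors, scaling over both genomes, no filter on low counts, a fit to 20 libraries, MC + Chemo 5 counted as MC, and leaving out libraries were the alternatives. On the simulated data, at an adjusted p under 0.05, edgeR found 28% of human genes changed 1.5-fold and 70% of those changed 2-fold. In the murine counts it found 2% and 26%, with 3 false calls in each genome. DESeq2 made 26 false calls beside 157 true ones in the human counts and 16 beside 120 in the murine counts. The difference of 2 chemotherapy effects used 20 libraries. Values per tumor are the normalized counts. The human share was compared by an exact permutation test of 462 regroupings (smallest p 0.00433).

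Gene lists, members and named genes were chosen with earlier results of these data known. Named genes are the 8 with the smallest p in each direction above a mean of 30 (no gene passed the criteria), genes the study names, and up to 4 members of each list by p with its most abundant member; of these, the text gives those that carry each list. Of 434 human list symbols 404 matched directly and 11 through RefSeq synonyms (GRCh38.p14), and 395 of 422 murine symbols matched. Some genes of the lists are not reported here by name.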

Additional observations from a re-analysis of the deposited data

Results flagged for a closer look

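The values below, on the log2(normalized count + 1) scale unless a percentage is given, each belong to 1 tumor that lay far from the others of its group. Its gap to the nearest of them exceeded the 95% critical share of the group's range. Of 330 groups examined 25 held such a tumor, and chance gives about 1 in 20.

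Among MC tumors, MC 41 had a human share of 47.8% (nearest 62.3%) and the highest HMOX1 (8.74). MC 6 was lowest for LCN2 (10.0, nearest 11.8), MAOA (7.80), Exoc4 (7.73), Chil3 (0.0), the human p53 target list (7.84) and the human sterol list (8.33). It was highest for PSMB8 (9.74), HELLS (10.3), Kcnj8 (7.04) and the human repair list (8.0). MC 59 was lowest for PARP9 (8.91) and MC 42 for Cnot3 (7.44).

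Among MC + Chemo tumors, MC + Chemo 52 was highest for B2M (15.2), Rps27l (10.3), Fdps (5.63) and the human oxidative phosphorylation list (10.7). It was lowest for Cnot3 (6.53), Ptprb (6.87), S100a9 (8.05), Ncr1 (3.01), Zmat3 (7.04) and the murine neutrophil list (5.07). MC + Chemo 47 was lowest for Prex2 (5.16).

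The chemotherapy effect differed with and without MC for ENSG00000130600 by DESeq2, by -3.20 on the log2 scale (adjusted p = 0.0252).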

How the results depend on the processing

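With edgeR, 0 genes passed in either genome under every alternative: DESeq2 size factors, no filter on low counts, scaling over both genomes, a fit to 20 libraries, an adjusted p alone, MC + Chemo 5 counted as MC, and leaving out MC 41 with MC 42 or any 1 library. DESeq2 called 27 human and 10 murine genes, and 1 human gene for the difference of the 2 chemotherapy effects. Leaving out 1 library with DESeq2, an alternative chosen after seeing the data, gave 9 to 77 human and 1 to 119 murine calls, and the cause was not tested. Of the named genes with a fold change, Bax changed its direction on the scaling over both genomes (-0.0231) and with 1 library left out (from -0.0777 without MC + Chemo 52 to 0.263 without MC + Chemo 47), and Mdm2 without both MC 41 and MC 42 (-0.0156). The cause was not tested. The medians of several lists changed sign under at least 1 alternative, among them host adipocyte, oxidative phosphorylation and skeletal muscle genes. Without MC + Chemo 52, 1106 human genes had an unadjusted p under 0.05. No paired analysis was possible because the MC and MC + Chemo mice share no replicate number. Depth limits genes of low counts, such as Gzmf (SE 0.66) and CSF3 (SE 0.41).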

Other observations

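Several human genes called by DESeq2 belonged to none of the lists, and were chosen after their values were seen. OLR1, a scavenger receptor for oxidized lipoprotein, had a mean normalized count of 17.999 in MC and 52.7 in MC + Chemo (log2 fold change 1.58, adjusted p = 0.0133). SERPINB2, the plasminogen activator inhibitor PAI-2, had 105 and 284 (1.43, adjusted p = 0.0302), and KIT, the stem cell factor receptor, 18.9 and 49.2 (1.33, adjusted p = 0.0369). MYD88, the adaptor of Toll-like receptors, had 423 and 688 (0.69, adjusted p = 0.0369). PTGES, a prostaglandin E synthase, had 753 and 1192 (0.66, adjusted p = 0.0496). CADM1, a cell adhesion molecule, was lower at 213 and 102 (-1.07, adjusted p = 0.0369), as was the connexin gene GJC1 at 120 and 61.8 (-0.96, adjusted p = 0.0496). With edgeR none of these passed.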
